A study of Mus musculus with 9 samples.

Results

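The 7 genes described here are Apoe, Abca1, Abcg1, Nr1h3, Mylip, Srebf2 and Lpl, which act together in how cells load, move and sense cholesterol. They were taken by symbol from the 20926 genes of the expression matrix, and all 7 were found in it and passed the filter on low values. They were chosen by role and with earlier results of these data known, Apoe in particular by its FPKM in the 3 groups. Its values and those of the other 6 are therefore given as a description without a test.

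The libraries came from the blood of male DBA/1 mice, a strain commonly used for collagen arthritis, which were 7 weeks old when they were divided into groups and older when blood was taken, with 3 libraries per group and 9 in all. The Ctrl group carried no arthritis model and was not irradiated. The CIA group had collagen-induced arthritis, raised with an emulsion of chick type II collagen and adjuvant followed by a booster, and was not irradiated. The CIA+THz group had the same arthritis, and its swollen ankles were exposed to a 0.1 THz wave for 30 min per day over 14 days under isoflurane. The methods do not mention anaesthesia for the other groups, so the wave and the anaesthesia cannot be told apart in CIA+THz against CIA. The labels call the tissue blood leukocyte, whereas the methods speak of total blood RNA. No label ties a library to a single mouse, so the spread between libraries may be technical in part.

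Cholesterol reaches a cell inside lipoproteins, which are bound through apolipoproteins such as the one encoded by Apoe and taken up by lipoprotein receptors. When sterols build up, oxysterols activate the liver X receptors (LXR), and these raise the exporters ABCA1 and ABCG1, the ligase encoded by Mylip, which degrades lipoprotein receptors, and, in macrophages, Apoe itself. When sterols run low, SREBP2, the product of Srebf2, turns on cholesterol synthesis and lipoprotein uptake. Monocytes and macrophages are the blood-derived cells best known for this cycle.

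The sequences just upstream of 3 of the genes are shown because they carry the known sterol-sensing elements of this cycle or, for Apoe, belong to the gene whose level separated all 3 groups. They are RefSeq sequence on GRCm38.p6, written 5′ to 3′ along the strand of the gene and ending at the base before the gene start. Capitals mark a match to a searched motif. RefSeq windows were at hand for 5 of the 7 genes, and Abcg1 and Lpl had none.
Apoe, chr7:19699189-19699438, minus strand: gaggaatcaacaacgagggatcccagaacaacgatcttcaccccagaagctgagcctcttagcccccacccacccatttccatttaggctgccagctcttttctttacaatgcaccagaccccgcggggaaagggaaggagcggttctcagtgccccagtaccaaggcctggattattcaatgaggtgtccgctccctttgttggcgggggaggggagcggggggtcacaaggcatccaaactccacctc
Abca1, chr4:53159896-53160145, minus strand: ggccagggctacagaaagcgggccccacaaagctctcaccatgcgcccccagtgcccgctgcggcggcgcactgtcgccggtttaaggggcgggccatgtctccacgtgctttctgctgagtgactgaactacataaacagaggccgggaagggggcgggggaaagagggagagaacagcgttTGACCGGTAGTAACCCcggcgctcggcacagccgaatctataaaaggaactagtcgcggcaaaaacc
Srebf2, chr15:82147019-82147180, plus strand: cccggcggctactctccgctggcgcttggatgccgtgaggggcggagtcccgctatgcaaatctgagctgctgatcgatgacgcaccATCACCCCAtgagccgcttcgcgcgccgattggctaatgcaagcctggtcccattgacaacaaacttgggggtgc

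The capitals in Abca1 are, read on the opposite strand, the LXR element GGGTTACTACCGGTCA, which lies 67 to 52 bases before the gene start. The motif, GGGTTACT and CGGTCA with any 2 bases between them, searched on both strands, was present in 3 of 32851 upstream windows of 250 bases, or 0.00913%, and the other two belonged to Srebf1 and Fasn, also LXR targets. Its letters were written down from the known element after windows had been read, so this rarity is no finding. The capitals in Srebf2 are the sterol regulatory element ATCACCCCA, which 79 of the same windows, or 0.240%, contained. The Apoe window held neither motif, which says only that these letters are not in these 250 bases.

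All levels below are rescaled FPKM, that is, FPKM, which sets fragments relative to transcript length and library total, divided by 1 scaling factor per library, a unit that allows levels of different genes to be compared. The file holds no read counts. From the steps between its low values, the Ctrl and CIA libraries had 0.739 to 0.944 times the depth of the third CIA+THz library, and the other CIA+THz libraries 1.38 and 1.04 times that depth. A value near 0 in Ctrl or CIA therefore rests on fewer fragments than in CIA+THz. Alas2, a heme synthesis gene of red cell precursors, alone took 14.4% to 16.6% of the summed FPKM in Ctrl, 16.3% to 16.7% in CIA and 11.4% to 14.0% in CIA+THz, so the RNA was not of leukocytes alone and CIA+THz held the lowest share. None of 28 genes that every cell uses was at 0 in any library.

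Apoe encodes apolipoprotein E, the lipoprotein ligand that macrophages secrete with exported cholesterol. The gene lies on chromosome 7 of GRCm38 (chr7:19696109-19699188, minus strand). Its level was 84.9, 90.1 and 89.1 in the Ctrl libraries, 308, 312 and 346 in CIA, and 163, 170 and 137 in CIA+THz. Every CIA library was above every CIA+THz library, and every CIA+THz library was above every Ctrl library, without overlap. The group means were 88.0 ± 2.76 (SD, n = 3) in Ctrl against 322 ± 21.0 in CIA and 157 ± 17.1 in CIA+THz. CIA was thus 3.66 times the Ctrl mean, and CIA+THz was 0.486 times the CIA mean and 1.78 times the Ctrl mean. On the log2 scale the differences were 1.87 (SE 0.10) for CIA against Ctrl, -1.04 (SE 0.11) for CIA+THz against CIA and 0.83 (SE 0.11) for CIA+THz against Ctrl. With the FPKM as deposited the last 2 were -0.77 and 1.13, so the size of the CIA+THz differences rests in part on the scaling while their direction does not. Comparisons that share a group, as these do, are not independent of each other.

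**Figure D1:**
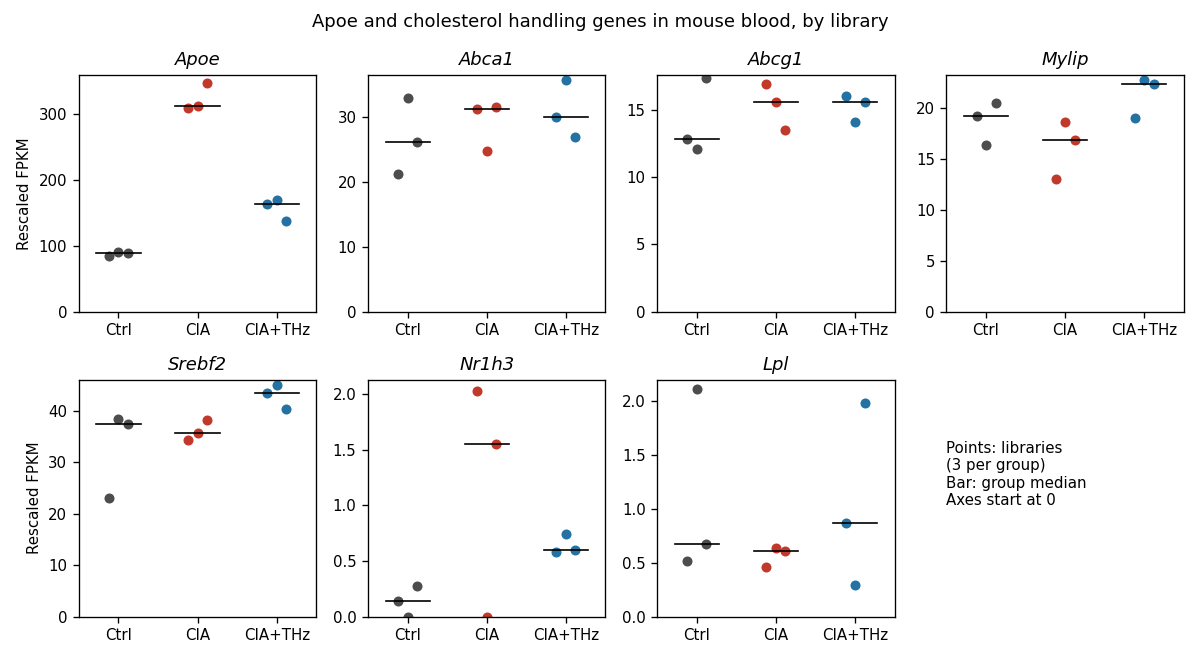
Rescaled FPKM (y axis, starting at 0) of the 7 genes in the 3 libraries of each group. Points are libraries and bars are group medians. Apoe separates into 3 levels of 84.9 to 90.1, 137 to 170 and 308 to 346, whereas Abca1 and Abcg1 overlap between all groups.

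Abca1 and Abcg1 encode the exporters that hand cholesterol to lipid-poor apolipoproteins and to HDL particles, and both are textbook LXR targets. Abca1 (chr4:53030787-53159895), whose upstream LXR element is shown above, was 21.3, 32.9 and 26.1 in Ctrl, 31.2, 24.7 and 31.5 in CIA, and 30.1, 35.8 and 27.0 in CIA+THz. The 3 groups covered nearly the same range. Its log2 differences were 0.13 (SE 0.19), 0.087 (SE 0.15) and 0.22 (SE 0.18) for CIA against Ctrl, CIA+THz against CIA and CIA+THz against Ctrl. Abcg1 (chr17:31057675-31117988) was 12.9, 12.1 and 17.3 in Ctrl, 16.9, 15.6 and 13.5 in CIA, and 16.0, 14.1 and 15.6 in CIA+THz. Its groups overlapped in every comparison as well, with log2 differences of 0.13 (SE 0.18), -0.0041 (SE 0.13) and 0.13 (SE 0.16) in the same order. With the FPKM as deposited, CIA+THz against CIA was 0.36 for Abca1 and 0.27 for Abcg1, under the threshold. Neither exporter showed the 3 separate levels of Apoe.

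Nr1h3 encodes LXRα, the sterol-activated receptor of this cycle. The gene (chr2:91184061-91202834) was near the lower limit of the data, at 0.143, 0 and 0.276 in Ctrl, 2.03, 0 and 1.56 in CIA, and 0.581, 0.745 and 0.602 in CIA+THz. The second CIA library was listed at 0 while the other two CIA libraries held the highest values of all 9. CIA+THz lay wholly above Ctrl, with a log2 difference of 1.82 (SE 0.59) that shrank to 0.53 with a pseudocount of 1 and had an SE of 1.02 with all 3 groups in 1 fit, neither of which was past the criterion set out below. CIA against Ctrl was 1.76 (SE 1.22) with the second CIA library and 3.17 (SE 0.69) without it. CIA+THz against CIA was 0.066 (SE 1.13) with that library and -1.34 (SE 0.32) without it. With all libraries kept it was -0.27 with a pseudocount of 1. It was 0.86 without the first CIA library and -0.030 without the second CIA+THz library, so neither its sign nor its size is settled. Exons of 1 other annotated gene on the same strand, Gm13783, overlap those of Nr1h3, and their reads may be shared.

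Mylip encodes IDOL, the ubiquitin ligase that sends lipoprotein receptors to the lysosome and another LXR target. It (chr13:45389742-45412022) was 19.2, 16.3 and 20.5 in Ctrl, 12.99, 18.6 and 16.8 in CIA, and 19.0, 22.7 and 22.4 in CIA+THz. The CIA+THz libraries were all above the CIA libraries, the closest being 19.0 against 18.6, and they overlapped with Ctrl. The log2 difference was 0.42 (SE 0.16) for CIA+THz against CIA, and 0.69 with the FPKM as deposited, which is past the same criterion. It was -0.22 (SE 0.18) for CIA against Ctrl, the opposite sign to Apoe. 

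Srebf2 (chr15:82147181-82205379) encodes SREBP2, the master regulator of sterol synthesis, and its upstream sterol regulatory element is the one in capitals above. Its level was 23.0, 38.3 and 37.5 in Ctrl, 34.3, 35.6 and 38.2 in CIA, and 43.4, 44.9 and 40.2 in CIA+THz. All CIA+THz libraries were above all others, while Ctrl and CIA overlapped and the first Ctrl library was well below the other two. The log2 differences were 0.25 (SE 0.091) for CIA+THz against CIA and 0.42 (SE 0.20) for CIA+THz against Ctrl. With the FPKM as deposited they were 0.53 and 0.72, the latter past the same criterion.

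Lpl encodes lipoprotein lipase, which frees fatty acids from circulating lipoproteins and is made mainly in fat, muscle and macrophages. The gene (chr8:68880491-68907448) was 0.511, 2.11 and 0.672 in Ctrl, 0.458, 0.633 and 0.612 in CIA, and 0.867, 0.288 and 1.98 in CIA+THz. A single library stood above the rest in Ctrl and another in CIA+THz, and all 3 groups overlapped. The log2 differences were -0.61 (SE 0.56), 0.47 (SE 0.62) and -0.14 (SE 0.74) for CIA against Ctrl, CIA+THz against CIA and CIA+THz against Ctrl.

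In every group Apoe had the highest level of the 7, followed by Srebf2, Abca1, Mylip and Abcg1, with Lpl and Nr1h3 lowest. Srebf2 and Abca1 overlapped in Ctrl, Mylip and Abcg1 overlapped in Ctrl and CIA, and Lpl and Nr1h3 overlapped in CIA and CIA+THz. The other neighbours in this order did not overlap within their group.

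Read as a set, the 7 genes did not move together. The study's criterion was a log2 fold change of over 0.67 in size together with p under 0.05 before adjustment. Apoe was the 1 gene of the 7 past it in CIA against Ctrl and in CIA+THz against CIA, and Apoe and Nr1h3 were past it in CIA+THz against Ctrl. Of all 12382 genes tested, 9.05%, 4.54% and 7.85% were past it in the same comparisons. Groups did not overlap for 1, 3 and 3 of the 7, where the shares over all genes were 23.5%, 19.6% and 23.9%. Since the genes were chosen with these contrasts known, nothing is read from these counts.

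Beyond the 7 genes, 98 other cholesterol pathway genes were in the matrix and 83 passed the filter of a mean rescaled FPKM of 0.1. They were sorted into 6 lists by role and tested with limma. The genes of the lists were chosen for their roles, with results of the whole series known. In CIA against Ctrl, 7 were higher and 1 was lower at the criterion, or 9.64% against 9.05% over all genes. The median log2 difference was 0.10 over the 83 and -0.0051 over all genes tested. With limma's Benjamini-Hochberg adjusted p in the same criterion, none of the 83 passed in any pair of groups, where 0.153%, 0% and 0.105% of all genes did, in CIA against Ctrl, CIA+THz against CIA and CIA+THz against Ctrl. At p under 0.05 before adjustment and with no fold threshold, limma gave 17, 13 and 16 of the 83, or 20.5%, 15.7% and 19.3%, where it gave 17.4%, 13.2% and 18.1% of all genes.

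**Figure D2:**
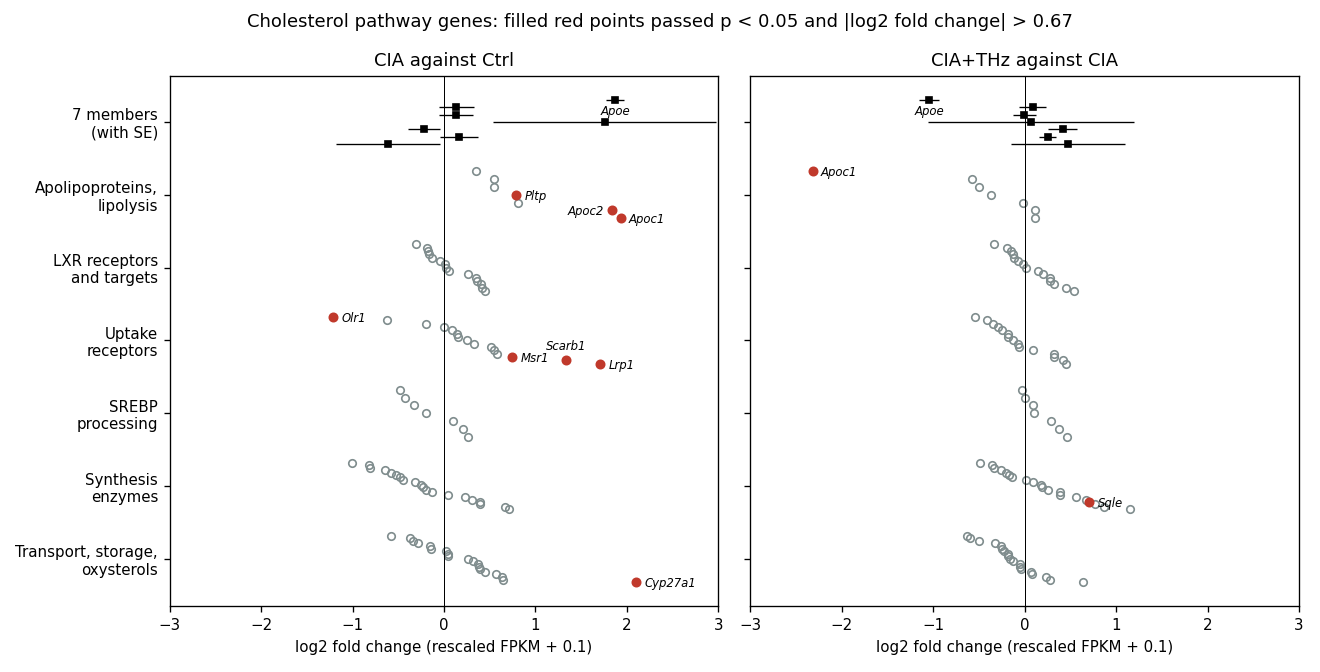
Log2 fold change of rescaled FPKM + 0.1 (x axis) of the 7 genes (squares, error bars are the SE) and of 83 other cholesterol pathway genes (circles) in 6 lists, for CIA against Ctrl on the left and CIA+THz against CIA on the right. Filled red circles passed the criterion of p under 0.05 and a log2 fold change over 0.67 in size, and are 8 on the left and 2 on the right.

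The apolipoprotein and lipolysis list had 3 of 7 tested genes past the criterion in CIA against Ctrl, all higher. That is 42.9%, against 9.05% over all genes, in a list too short to read much from a share. All 7 had a log2 difference above 0. Apoc2, the cofactor of lipoprotein lipase, lies in the same cluster of chromosome 7 as Apoe (chr7:19671579-19677941). It was 0.969, 0.716 and 1.35 in Ctrl, 4.22, 3.03 and 4.15 in CIA, and 3.23, 2.61 and 1.83 in CIA+THz. The CIA and CIA+THz libraries were all above the Ctrl libraries, with log2 differences of 1.84 (SE 0.34, adjusted p = 0.0715 by limma) and 1.26 (SE 0.35, adjusted p = 0.149 by limma). CIA and CIA+THz overlapped, and the difference of -0.57 (SE 0.28) between them did not pass, though it was -0.75 and past the criterion without the first CIA+THz library.

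Apoc1 (chr7:19689481-19692660), between Apoe and Apoc2, encodes an apolipoprotein that slows lipoprotein clearance. It was 0, 0 and 0.124 in Ctrl, 0.389, 0.475 and 0.341 in CIA, and listed at 0 in all 3 CIA+THz libraries, although these were the deepest. It passed the criterion in CIA against Ctrl and, lower, in CIA+THz against CIA (adjusted p = 0.169 and 0.188 by limma), and in neither with a pseudocount of 1. Apoc4, also in the cluster, was 0 in all 9 libraries. Pltp, which moves phospholipids between lipoproteins, was 5.03 ± 1.45 in Ctrl against 8.49 ± 0.450 in CIA and 9.38 ± 2.56 in CIA+THz (SD, n = 3). It passed against Ctrl in both immunized groups, at 0.79 (SE 0.26, adjusted p = 0.199 by limma) and 0.90 (SE 0.29, adjusted p = 0.187 by limma). The first was under the criterion without the first Ctrl library (0.53) or the first CIA library (0.75), and the second without the first Ctrl library (0.63) or the first or second CIA+THz library (0.90 and 0.70).

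Of the 15 uptake receptors tested, 3 were higher and 1 was lower in CIA against Ctrl at the criterion. Together they were 26.7% of this short list, against 9.05% over all genes. Lrp1, a large lipoprotein receptor that binds apolipoprotein E, was 9.17, 7.62 and 11.8 in Ctrl, 24.8, 30.0 and 39.8 in CIA, and 22.0, 20.4 and 21.2 in CIA+THz. The 3 groups did not overlap and stood in the same order as for Apoe. The log2 differences were 1.71 (SE 0.23, adjusted p = 0.0513 by limma) for CIA against Ctrl and 1.17 (SE 0.17, adjusted p = 0.0680 by limma) for CIA+THz against Ctrl. CIA+THz against CIA was -0.54 (SE 0.17, adjusted p = 0.288 by limma), short of the fold threshold. This became -0.27 with the FPKM as deposited, and -0.70 and past the criterion without the first CIA library.

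Scarb1, the HDL receptor SR-BI, was 6.37 ± 1.07 in Ctrl, and at the criterion it rose in both immunized groups, to 16.6 ± 5.49 in CIA and 14.2 ± 2.15 in CIA+THz (SD, n = 3). Its log2 differences from Ctrl were 1.33 (SE 0.26, adjusted p = 0.0812 by limma) and 1.15 (SE 0.19, adjusted p = 0.0709 by limma). Msr1, a macrophage scavenger receptor for modified LDL, was higher in CIA by 0.74 (SE 0.29, adjusted p = 0.251 by limma). Olr1, the receptor for oxidized LDL known from endothelium, was lower in CIA with a log2 difference of -1.21 (SE 0.45, adjusted p = 0.237 by limma), at 5.03 ± 1.49 in Ctrl and 2.28 ± 1.32 in CIA (SD, n = 3). For both Msr1 and Olr1 the groups overlapped. Msr1 was under the criterion without the second or the third Ctrl library or the first or the third CIA library, with values down to 0.50. Olr1 was under it without the first or second library of either group, with values up to -0.85.

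The list of LXR partners and targets had none of 15 tested genes past the criterion in any pair of groups by limma. Its median log2 differences were 0.023, 0.012 and 0.15 for CIA against Ctrl, CIA+THz against CIA and CIA+THz against Ctrl. In limma's F-test across the 3 groups 1 gene, or 6.67%, had a p under 0.05 before adjustment, against 21.2% over all genes. With no fold threshold, limma's p before adjustment was under 0.05 for 2 of the 15, or 13.3%, in each pair of groups, close to or below the shares of 17.4%, 13.2% and 18.1% over all genes. Nr1h2, which encodes LXRβ, was far above Nr1h3, at 39.0 ± 1.44 in Ctrl against 46.9 ± 4.78 in CIA and 37.4 ± 5.40 in CIA+THz (SD, n = 3). Srebf1, an LXR target that drives fatty acid synthesis and shares the upstream element of Abca1, was 6.35 ± 0.729, 8.87 ± 2.40 and 8.80 ± 1.59 (SD, n = 3) in the same order. Its log2 difference of 0.44 (SE 0.25) in CIA against Ctrl was under the threshold, and it was 0.68 (SE 0.18) and past it without the first CIA library. In CIA+THz against Ctrl it was 0.45 (SE 0.19), and 0.76 and past the criterion with the FPKM as deposited.

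Neither the 7 SREBP processing genes nor the 20 sterol synthesis enzymes had a gene past the criterion in CIA against Ctrl by limma, and at p under 0.05 before adjustment alone there were 1 and 0, or 14.3% and 0% against 17.4% over all genes. Scap, the escort of SREBP, was 8.17 ± 2.27, 8.56 ± 0.316 and 8.44 ± 1.46 in Ctrl, CIA and CIA+THz (SD, n = 3). Insig1, which holds SREBP back when sterols are plentiful, was 25.4 ± 2.77, 18.9 ± 2.92 and 23.3 ± 5.24 (SD, n = 3). Of the synthesis enzymes, 13 of 20 had a log2 difference below 0 in CIA against Ctrl and 13 of 20 above 0 in CIA+THz against CIA. The medians were -0.24 and 0.18, against -0.0051 and 0.026 over all genes tested. Both comparisons share the CIA libraries, so their opposite signs are not independent. The 0.18 was smaller than the log2 shift of 0.28 that the scaling removed.

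Sqle, the squalene epoxidase of the same route, was 1.66, 2.28 and 2.39 in CIA and 3.07, 3.16 and 4.26 in CIA+THz, without overlap. It was the 1 gene of the 83 that was higher in CIA+THz than in CIA at the criterion (0.71, SE 0.25, adjusted p = 0.315 by limma), and fell short without the first CIA library (0.55) or the third CIA+THz library (0.56). Ctrl overlapped with both, at 2.75, 4.11 and 2.28. Dhcr7, the last enzyme of one branch of the route, passed in CIA+THz against Ctrl (0.87, SE 0.37, adjusted p = 0.269 by limma) with overlapping groups. It was under the criterion without the second or the third library of either group, with values from 0.61 to 0.93. In CIA+THz against CIA, 2.41% of the 83 genes were past the criterion and 4.54% of all genes were. In CIA+THz against Ctrl these were 8.43%, all 7 genes higher, and 7.85%.

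Among the 19 genes of sterol transport, storage and oxysterol synthesis, Cyp27a1 was the 1 gene past the criterion in CIA against Ctrl. That is 5.26% of the list, against 9.05% over all genes. Cyp27a1 encodes sterol 27-hydroxylase, which makes an oxysterol that activates LXR. Its level was 1.22, 2.15 and 2.21 in Ctrl, 6.13, 9.38 and 8.99 in CIA, and 6.73, 10.2 and 5.84 in CIA+THz. Both immunized groups were above Ctrl without overlap, by 2.10 (SE 0.31, adjusted p = 0.0615 by limma) and 1.97 (SE 0.32, adjusted p = 0.0703 by limma), and they overlapped each other with a difference of -0.12 (SE 0.26). Its pattern thus differed from that of Apoe in CIA+THz, where Apoe was at 0.486 times its CIA mean.

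Npc2, the lysosomal protein that hands cholesterol from digested lipoproteins to the membrane, was 102 ± 6.44, 159 ± 13.3 and 132 ± 4.86 in Ctrl, CIA and CIA+THz (SD, n = 3), with no overlap between groups. Its log2 differences of 0.64 (SE 0.11) and -0.26 (SE 0.092) were under the fold threshold, the latter being 0.017 with the FPKM as deposited. The former was past the criterion with the FPKM as deposited (0.67), without the first Ctrl library (0.68) or without the third CIA library (0.70), and CIA+THz against Ctrl went from 0.38 to 0.69 and past it with the FPKM as deposited. Npc1, its membrane partner, was 8.32 ± 0.570, 11.5 ± 1.42 and 9.61 ± 0.355 (SD, n = 3). Lipa, the lysosomal acid lipase, was 8.84 ± 1.85, 11.5 ± 1.20 and 11.1 ± 0.556, and Soat1, which esterifies cholesterol for storage, was 21.8 ± 1.20, 19.5 ± 1.46 and 17.1 ± 1.42 (SD, n = 3).

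Across the 3 groups, 16 of the 83 pathway genes (19.3%) passed the F-test of limma at the 0.05 level before adjustment, where 21.2% of all genes did. The F-test p remained under 0.05 after adjustment over all genes for 5 of them, where 2.56% of all genes did. By limma's adjusted p these were Lrp1 (0.00866), Cyp27a1 (0.0127), Npc2 (0.0262), Scarb1 (0.0264) and Apoc2 (0.0335). In all 5 the Ctrl mean was the lowest and the CIA mean the highest, as for Apoe. In Apoc2, Scarb1 and Cyp27a1 the CIA and CIA+THz libraries overlapped, and in Scarb1, Cyp27a1 and Npc2 the CIA+THz against CIA differences of -0.18, -0.12 and -0.26 were smaller in size than the log2 shift of 0.28 that the scaling removed.

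**Figure D3:**
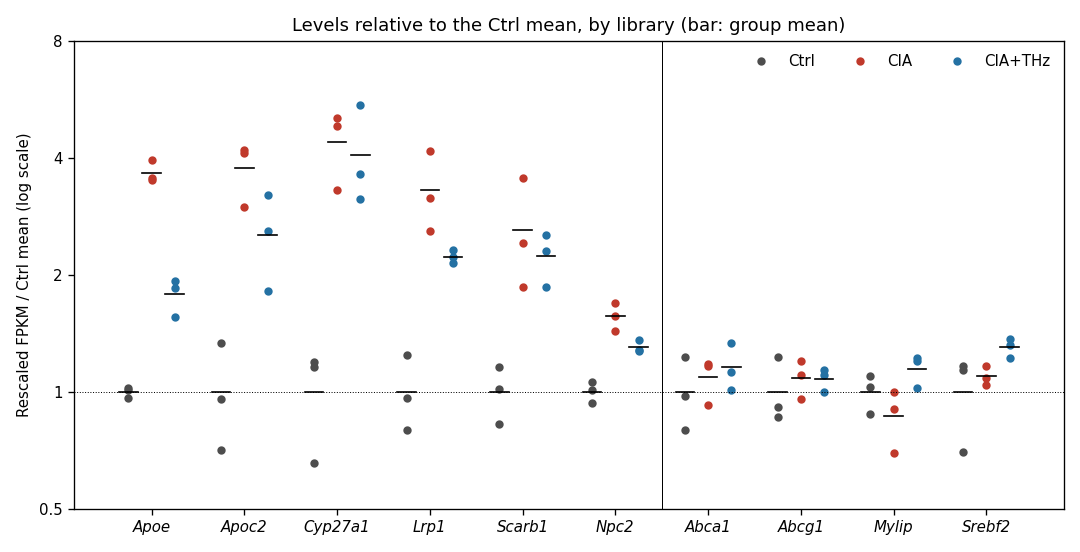
Rescaled FPKM of each library divided by the Ctrl mean of the gene (y axis, log scale) for Apoe, the 5 pathway genes with an adjusted F-test p under 0.05, and, right of the line, Abca1, Abcg1, Mylip and Srebf2. Points are libraries and bars group means. In the left part every CIA point lies above every Ctrl point, whereas on the right the Ctrl and CIA points of each gene overlap.

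By Pearson's r with Apoe over the 9 libraries, in log2 rescaled FPKM, genes among the most like it were Spryd3 (0.985), Psap (0.983), Vim (0.977) and Man2c1 (0.970) among 9766 genes with a mean of at least 1. The 9 libraries fall into 3 groups, so these values mainly order genes by how the group means agree in shape. Psap, which encodes the precursor of lysosomal lipid-digesting activators, was 349 in Ctrl against 613 in CIA and 458 in CIA+THz on average. Vim, an intermediate filament gene abundant in monocytes, was 405, 638 and 482. Of the pathway genes, Npc2 ranked 59 (r = 0.927), Lrp1 66 (r = 0.923) and Apoc2 94 (r = 0.911). The other genes of the 7 were far down the list, with r = 0.293 for Abca1 at rank 3170, 0.267 for Abcg1 at 3305, 0.255 for Srebf2 at 3364 and -0.422 for Mylip at 7412. Lpl and Nr1h3 were too low to be ranked.

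Most genes of classical monocytes moved in the direction of Apoe in CIA against Ctrl and in CIA+THz against CIA. The summed rescaled FPKM of the 12 markers of these cells was 3272 to 3670 in Ctrl against 5652 to 6249 in CIA and 3741 to 4041 in CIA+THz. In CIA against Ctrl, 7 of the 12 were higher at the criterion and 11 had a difference above 0, with a median of 0.86 and a highest value of 1.77 for Ms4a6d. Over all genes tested, 9.05% were past the criterion in that comparison, 4.54% in CIA+THz against CIA and 7.85% in CIA+THz against Ctrl. In CIA+THz against CIA, 4 of the 12 were lower at the criterion and all 12 had a difference below 0, with a median of -0.47. In CIA+THz against Ctrl the markers were mixed, with 9 of the 12 above 0 and a median of 0.58. There 4 were higher at the criterion and 1, Cd14 (-0.95), was lower. In CIA against Ctrl and CIA+THz against CIA, the log2 differences of Apoe, 1.87 and -1.04, were larger in size than those of each of the 12 markers. Apoe was chosen by its values in these groups, so nothing is read from its greater size. In bulk RNA, a change in the number of cells of a type and a change in RNA per cell cannot be told apart.

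The tissue macrophage list summed to 21.3 to 24.3 in Ctrl against 40.9 to 60.6 in CIA and 34.5 to 46.2 in CIA+THz. Of its 10 genes, Vsig4 and Marco were at 0 in all libraries. All 7 tested had a difference above 0 in CIA against Ctrl, but only 1, Adgre1 (1.13, SE 0.16), was higher at the criterion, which 9.05% of all genes passed. The other tested genes had an SE of 0.39 to 1.28, so the sum does not show a rise of the list as a whole. The hepatocyte genes Alb, Ahsg and Fgb and the adipocyte genes Adipoq, Plin1 and Lep, from the tissues that make most circulating apolipoprotein E or lipoprotein lipase, were at 0 in all libraries. The whole lists, of 6 and 5 genes, summed to at most 0.445 and 0.119 in any library. Neutrophil genes summed to 12590 to 21269 in Ctrl against 14770 to 19378 in CIA and 10833 to 12284 in CIA+THz. Within that list Camp, Ltf and Ngp, granule genes of immature neutrophils, moved in the order of Apoe and further, with log2 differences of 4.86, 4.08 and 3.02 in CIA against Ctrl and -2.04, -1.93 and -1.86 in CIA+THz against CIA. They were picked out after their values were seen, and the rest of the list did not follow them in CIA against Ctrl. There 6 of the 11 neutrophil genes had a difference above 0, with a median of 0.0016. At the criterion, which 9.05% of all genes passed, 3 were higher and 1, Mmp8 (-1.35), was lower. Of the 11 neutrophil genes, 4 passed the criterion as lower in the irradiated CIA+THz group, compared with CIA, and none had a difference above 0. Over all genes, 4.54% passed it in that comparison.

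Other cell type lists moved between the groups as well. Patrolling monocyte genes went the other way from the classical ones in CIA+THz against CIA, with 6 of 7 differences above 0, a median of 0.26 and 1 higher at the criterion. All 10 T cell genes were below 0 in CIA against Ctrl and above 0 in CIA+THz against CIA (medians -0.33 and 0.42), with 1 lower and 2 higher at the criterion. All 7 NK cell genes did the same (medians -0.99 and 0.59), with 4 lower and 2 higher. Over all genes tested, 9.05% were past the criterion in CIA against Ctrl and 4.54% in CIA+THz against CIA. In lists this short, a count of 1 or 2 says little beside those shares. The red cell precursor list summed to 80208 to 124046 in Ctrl, 98850 to 112289 in CIA, and 54861 to 76126 in CIA+THz, below all libraries of the others. Most of that sum was Alas2, so it largely repeats the Alas2 share given above. By gene, 3 of the 9 tested were above 0 in CIA+THz against CIA, with a median of -0.075 and none at the criterion. In CIA against Ctrl 1 of the 9 was above 0, with a median of -0.49 and 2 lower at the criterion. The FPKM as deposited would add about 0.28 to every log2 difference of CIA+THz against CIA, so values in these lists between -0.28 and 0 would turn sign. No gene of the T cell, B cell, NK cell and platelet lists was at 0 in all libraries. The part of any cell type in the levels of the 7 genes was not tested.

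To set Apoe beside the monocyte genes within each library, its FPKM was divided by the geometric mean of the 12 markers, a ratio that no scaling of the library can alter. It was chosen after the data were seen. The ratio of Apoe was 1.25, 1.53 and 1.69 in Ctrl, 2.79, 3.10 and 2.96 in CIA, and 1.98, 2.32 and 1.71 in CIA+THz. All CIA libraries lay above all others, and the lowest CIA+THz library was just above the highest Ctrl library. The ratio of Lrp1 was 0.163 ± 0.0538 in Ctrl against 0.287 ± 0.0588 in CIA and 0.270 ± 0.00835 in CIA+THz (SD, n = 3). That of Npc2 was 1.71 ± 0.208, 1.46 ± 0.185 and 1.69 ± 0.0731, without the CIA excess seen in its level. The ratios of Apoc2 (0.0173 ± 0.00723, 0.0346 ± 0.00416 and 0.0326 ± 0.00867), Scarb1 (0.109 ± 0.0315, 0.150 ± 0.0391 and 0.182 ± 0.0364) and Cyp27a1 (0.0321 ± 0.0126, 0.0751 ± 0.0189 and 0.0978 ± 0.0359) were lowest in Ctrl on average (SD, n = 3). Scarb1 and Cyp27a1 had their highest mean in CIA+THz, which Apoe did not, but for both the CIA and CIA+THz libraries overlapped.

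For Abca1, Mylip, Abcg1 and Srebf2, whose own levels in Ctrl and CIA overlapped, the mean of the same ratio was lowest in CIA. Abca1 was 0.312 to 0.558 in Ctrl against 0.245 to 0.282 in CIA and 0.336 to 0.490 in CIA+THz, so the CIA libraries lay below all others. Mylip was 0.277 to 0.389 in Ctrl against 0.118 to 0.184 in CIA and 0.231 to 0.311 in CIA+THz. Abcg1 was 0.241 ± 0.0768, 0.141 ± 0.0223 and 0.194 ± 0.000916, and Srebf2 was 0.566 ± 0.201, 0.330 ± 0.0219 and 0.548 ± 0.0597 (SD, n = 3). Such a ratio falls whenever the monocyte genes rise and the level of the gene itself does not.

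**Figure D4:**
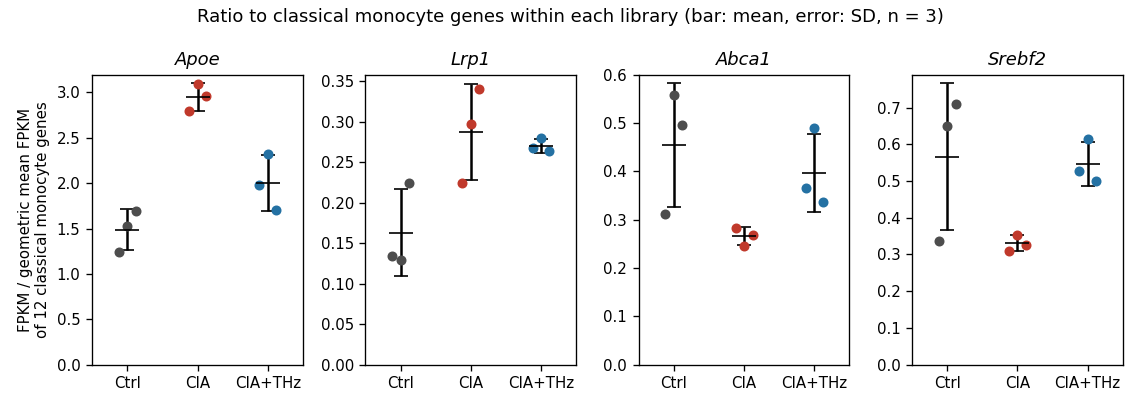
FPKM of Apoe, Lrp1, Abca1 and Srebf2 divided by the geometric mean FPKM of 12 classical monocyte genes in the same library (y axis, starting at 0), for the 3 libraries of each group. Points are libraries, horizontal bars means and error bars the SD (n = 3). For Apoe the CIA libraries, at 2.79 to 3.10, lie above all others, and for Abca1, at 0.245 to 0.282, below all others.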

How the data were processed

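Blood RNA of 3 Ctrl, 3 CIA and 3 CIA+THz libraries was read as paired ends by the authors, who deposited 1 FPKM value per gene and library for 20926 symbols. The submitters' processing notes name HISAT2, StringTie and the mm10 build. Depth is not given, and strand and annotation are not given in the sources used here. Groups were taken from the labels. For each library, FPKM was rescaled by a factor (median of ratios, 10312 genes without a 0, factors 0.837 to 1.22), which removed a log2 shift of 0.28 between CIA+THz and CIA, 0.31 between CIA+THz and Ctrl and 0.030 between CIA and Ctrl. The 12382 genes with a mean of at least 0.1 were fitted as log2(rescaled FPKM + 0.1) with limma 3.58.1 (lmFit, eBayes with trend, two-sided) in R 4.3.3, each pair on its own 6 libraries. This scale understates the change of genes near 0. The criterion, taken from the study, was p under 0.05 before adjustment together with a log2 fold change over 0.67 in size, and Benjamini-Hochberg values were taken over all genes tested.

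Relative depth was the commonest ratio between the low FPKM values of a library and those of the third CIA+THz library. The scripts were tested on simulated data. Positions are those of GENCODE on GRCm38 and upstream sequences those of RefSeq on GRCm38.p6, matched by symbol. The 7 genes, the pathway lists and the marker lists were chosen with earlier results of these data known. Named were the 7 genes, 14 pathway genes picked for their role, up to 8 pathway genes past the criterion by smallest p in each comparison, and the 5 genes most like Apoe. Some genes that this rule names are not reported here. Scarb1 and Npc2 in the ratio to monocyte genes, and that ratio itself, were chosen after values were seen, as were Apoc4 and Gm13783. Alternatives were FPKM as deposited, a pseudocount of 1, a mean of at least 1 or no filter, no trend, all 3 groups in 1 fit, the replicate number as a block, adjusted p-values and leaving out each library.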

Additional observations from a re-analysis of the deposited data

How the results depend on the processing

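Apoe kept its direction and stayed past the criterion in all 3 comparisons under every other scaling, pseudocount, filter, fit and left-out library, with ranges of 1.82 to 1.90, -1.10 to -0.95 and 0.76 to 0.92 for CIA against Ctrl, CIA+THz against CIA and CIA+THz against Ctrl when a library was left out. With the adjusted p in the criterion Apoe was past it in CIA against Ctrl alone. Apoe was chosen by its values in these groups, so its place against the criterion is a description and no test. With the FPKM as deposited, Apoe was at -0.77 in CIA+THz against CIA and 1.13 in CIA+THz against Ctrl. The median of all genes then shifts by the 0.28 and 0.31 that the factors remove, and the pathway genes past the criterion were 6 (5 higher, 1 lower) in CIA+THz against CIA, 12 in CIA+THz against Ctrl and 25 across the 3 groups, in place of 2, 7 and 16. In CIA+THz against CIA they were 0 with a pseudocount of 1 and 1 with a mean of at least 1. By adjusted p they were 0 in each pair and 5 across the groups. Leaving out a library gave 7 to 10 of these genes in CIA against Ctrl, 1 to 4 in CIA+THz against CIA (4 without the second CIA library, 1 without the third CIA+THz library), 5 to 7 in CIA+THz against Ctrl and 12 to 21 across the groups.

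Among the named pathway genes checked in this way, some signs turned with the FPKM as deposited. In CIA+THz against CIA these were Lipa (0.22), Npc1 (0.031), Npc2 (0.017), Scap (0.24) and Soat1 (0.088). In CIA+THz against Ctrl they were Insig1 (0.17) and Nr1h2 (0.24). Scarb1 (-0.18) and Cyp27a1 (-0.12) in CIA+THz against CIA, smaller in size than the shift of 0.28, were not among those checked. Of the 7 genes, Abcg1 turned to 0.27 in CIA+THz against CIA and Lpl to 0.13 in CIA+THz against Ctrl. Signs that turned with a library left out had log2 ranges of -0.053 to 0.31 for Scap in CIA against Ctrl, and in CIA+THz against CIA of -0.13 to 0.016 for Lipa, -0.17 to 0.043 for Scap and -0.23 to 0.17 for Srebf1. In CIA+THz against Ctrl they were -0.17 to 0.045 for Nr1h2 and -0.085 to 0.28 for Scap. None of these was past the criterion as reported, and the cause was not tested.

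Same-numbered libraries did not deviate together over the genes tested (correlations from -0.051 to 0.031). No pairing by number was seen, although such correlations cannot exclude one that touches few genes. With the replicate number as a block the counts were 8, 2, 6 and 15, and of the named genes Olr1 and Dhcr7 fell short. Without a filter Msr1, Olr1 and Dhcr7 fell short, without the trend Msr1 and Dhcr7 did, and with a pseudocount of 1 Apoc1 and Sqle did. Genes near 0 such as Nr1h3, Lpl and Apoc1 are limited by depth.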
